A study of Mus musculus with 30 samples.

Results

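The erythroid membrane and regulator genes described here are 9 genes of the red cell lineage, measured in RNA sequencing libraries of haematopoietic stem cells (HSCs), the marrow cells that renew all blood lineages. They were taken by symbol from a table of 35727 genes: the membrane genes Sptb, Kel, Rhd, Cldn13 and Ermap, the enzyme gene Car1, the receptor gene Epor, and the transcription factor genes Klf1 and Gata1. All 9 were found, and all 9 passed a filter that asked for a normalized count of at least 10 in at least 3 libraries. The genes were proposed with values of these libraries in view, so their levels and differences are given as a description with no p-value. Where some of them passed the threshold of the fit over all genes, that number is printed beside the share of all genes that passed, and nothing is read from it. Tests were kept for 58 other erythroid genes, grouped by function in 7 lists that hold none of the 9.

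The series holds 30 libraries of mouse HSCs in 8 groups. Mice labelled IL1R1 KO gave 3 libraries at 2 months, 4 at 1 year and 5 at 2 years, and germ-free mice gave 2 at 1 year and 3 at 2 months. Wild-type (WT) mice gave 4 libraries at 2 months, 5 at 1 year and 4 at 2 years. By its title, the series asks what interleukin-1 and the microbiome contribute to inflammation and ageing of HSCs. The sources used here give no knockout allele, strain or sort markers, and do not say whether libraries came from separate animals, so the errors below measure the spread between these libraries, which may be technical. The labels of 1 library disagree: IL1R1 KO 1 year replicate 1 is of 1 year by title and source and of 2 months by its age entry. It was kept at 1 year.

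Il1r1, the gene of the interleukin-1 receptor named in the knockout label, had group means of 231 to 322 normalized counts in libraries labelled IL1R1 KO and 179 to 276 in WT, so its summed count does not separate the labels. A partial deletion may or may not show in a count summed over the gene, and the allele is not given. Directions for these libraries thus rest on how they were labelled. Libraries held an estimated 15.6 to 56.3 M reads. The label of the cells was set beside marker genes. The summed level of 10 HSC genes (such as Procr and Kit) was 73160 to 106200 normalized counts in every library, while that of the globins lay between 557 and 29850. The sum of 6 granulocyte precursor genes (such as Mpo) reached 116700 in WT at 2 months, where the HSC sum was 77790 to 79340. In germ-free libraries of 2 months it reached 92210, and that of 8 neutrophil genes 99840, with HSC sums of 74290 to 76560. HSC genes thus did not have the highest sum in every library.

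Red cells arise from stem cells through erythroid progenitors that depend on erythropoietin, the kidney hormone bound by the receptor encoded by Epor. The zinc finger factors GATA1 and KLF1 drive that lineage: GATA1 binds GATA motifs, KLF1 binds CACCC-type motifs, and both act at genes of the globins, of haem synthesis and of the red cell membrane. The membrane rests on a spectrin skeleton, whose beta chain is encoded by Sptb, and carries blood group proteins such as Kell (Kel), Rh (Rhd) and the Scianna antigen known from human red cells (Ermap). Cldn13 encodes a claudin found in mouse erythroid cells, and Car1 a cytosolic carbonic anhydrase abundant in red cells and their precursors.

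Promoter sequences are shown for 4 of the 9 genes, because they let a reader see which motifs of the lineage factors stand in genes that shared a pattern across libraries (Kel, Ermap and Klf1) and in the gene that did not share it (Epor). They were taken from RefSeq on GRCm38.p6, run 5′ to 3′ on the strand of the gene, and cover 250 bases before and 50 bases after the start. Capitals mark the motifs of the lineage factors searched for, read on either strand: the GATA-type motifs AGATAA and TGATAA, and the motif CACCC.
Kel (chr6:41704276-41704575, minus strand): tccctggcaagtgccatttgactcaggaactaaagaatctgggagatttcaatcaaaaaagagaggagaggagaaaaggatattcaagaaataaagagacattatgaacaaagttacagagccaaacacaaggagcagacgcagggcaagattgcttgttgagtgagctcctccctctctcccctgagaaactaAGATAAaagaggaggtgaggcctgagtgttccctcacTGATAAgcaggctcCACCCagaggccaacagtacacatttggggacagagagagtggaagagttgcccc
Ermap (chr4:119189946-119190245, minus strand): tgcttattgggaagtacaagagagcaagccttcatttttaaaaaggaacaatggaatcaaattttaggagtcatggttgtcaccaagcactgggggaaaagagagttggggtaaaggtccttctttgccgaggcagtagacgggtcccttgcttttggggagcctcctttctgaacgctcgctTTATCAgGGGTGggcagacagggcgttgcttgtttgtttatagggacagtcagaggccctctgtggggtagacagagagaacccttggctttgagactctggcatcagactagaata
Klf1 (chr8:84901732-84902031, plus strand): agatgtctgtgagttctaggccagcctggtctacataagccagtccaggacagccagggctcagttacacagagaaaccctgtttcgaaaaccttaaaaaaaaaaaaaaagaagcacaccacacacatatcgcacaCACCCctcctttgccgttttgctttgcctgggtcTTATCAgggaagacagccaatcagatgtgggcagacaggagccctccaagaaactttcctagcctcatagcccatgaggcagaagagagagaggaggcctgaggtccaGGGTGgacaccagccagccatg
Epor (chr9:21963527-21963826, minus strand): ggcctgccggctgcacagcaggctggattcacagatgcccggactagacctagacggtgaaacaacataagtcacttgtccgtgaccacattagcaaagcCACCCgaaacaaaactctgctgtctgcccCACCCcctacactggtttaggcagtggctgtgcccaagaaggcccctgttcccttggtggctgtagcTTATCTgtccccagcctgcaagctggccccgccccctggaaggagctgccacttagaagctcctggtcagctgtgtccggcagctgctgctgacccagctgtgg

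RefSeq gave a promoter for 7 of the 9 genes, and none was used here for Cldn13 and Car1. AGATAA or TGATAA, searched on both strands, stood in 5 of the 7 (Kel, Rhd, Ermap, Epor and Klf1), against 18.6% of 32851 mouse promoters of the same length. Sptb and Gata1, which shared the pattern across libraries but are not shown, held CACCC and neither GATA-type motif. Kel held both, with AGATAA first at position -56 and TGATAA at -19 from the start. In Ermap and Klf1 TGATAA lay on the opposite strand at -67 and -80, and in Epor AGATAA did so at -54. CACCC was found in all 7 against 57.5% of all promoters, and the longer CCACACCC, which contains CACCC, in 0 of 7, against 3.56%. Epor held AGATAA as well, so the presence of these letters does not set it apart from Kel, Rhd, Ermap and Klf1. A match is a run of letters in this window and not a measured binding site.

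Levels are normalized counts per gene, each library scaled by the authors. Differences are log2 differences of (normalized count + 1) between group means with the standard error (SE) of a limma fit over all libraries. For 8 of the 9 genes the lowest group mean was that of WT at 1 year, and the highest was between 4.59 times (Gata1) and 33 times (Sptb) the lowest. Epor was the exception, with a ratio of 1.60 between its highest and lowest group means. In bulk samples, fewer cells of a type and less RNA per cell cannot be told apart.

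**Figure D1:**
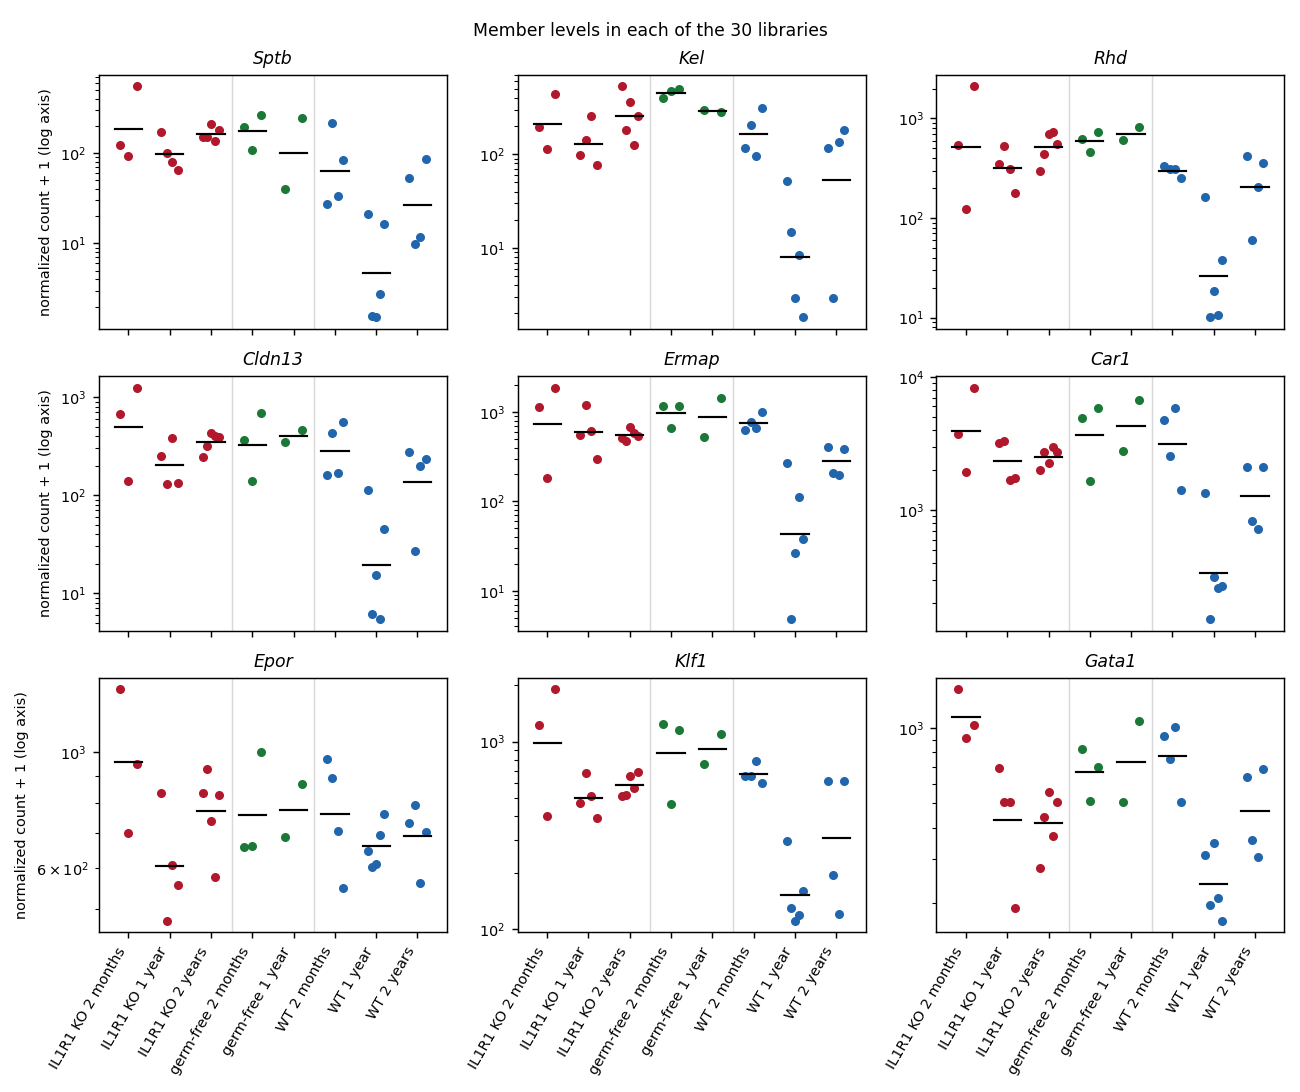
Normalized count + 1 of each of the 9 genes in every library (log axis), by group; each point is 1 library and each line the mean on the log scale. WT at 1 year has the lowest mean in 8 panels, and its replicate 1 is its highest library in all panels but those of Gata1 and Epor. The Epor panel spans a narrow range in every group.

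Among the membrane genes, Sptb (ENSMUSG00000021061, chromosome 12, 76580488 to 76710547, minus strand, GRCm38) encodes beta-spectrin. In libraries labelled IL1R1 KO its normalized count was 122, 92.6 and 548 at 2 months (mean 254 ± 255, SD, n = 3), 168, 100.0, 78.1 and 63.4 at 1 year (102 ± 46.1, SD, n = 4) and 149, 148, 206, 134 and 180.2 at 2 years (164 ± 29.4, SD, n = 5). Germ-free libraries had 39.0 and 244 at 1 year (142 ± 145, SD, n = 2) and 191, 106 and 265 at 2 months (187 ± 79.3, SD, n = 3). WT libraries had 26.6, 215, 32.5 and 82.6 at 2 months (89.1 ± 87.4, SD, n = 4), 20.1, 0.559, 0.517, 1.74 and 15.6 at 1 year (7.69 ± 9.39, SD, n = 5) and 52.0, 8.78, 10.6 and 85.8 at 2 years (39.3 ± 36.9, SD, n = 4). The WT libraries of 1 year lay below all those of 2 months, with 3 of the 5 at fewer than 2 normalized counts, and those of 2 years overlapped both. The log2 difference of WT at 1 year from WT at 2 months was -3.77 ± 0.79. Exons of Sptb overlap exons of Plekhg3 on the opposite strand, and the kit does not mark strand. Reads that fall where the exons overlap thus cannot be told apart by strand, and the share of such reads was not tested. Plekhg3 had means of 120 ± 24.9 (SD, n = 5) in WT at 1 year and 324 ± 50.9 (SD, n = 4) in WT at 2 months.

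Kel (ENSMUSG00000029866, chromosome 6, 41686330 to 41704339, minus strand) encodes the Kell blood group protein, a zinc endopeptidase of the membrane. Its normalized count in libraries labelled IL1R1 KO was 193, 112 and 440.3 at 2 months (248 ± 171, SD, n = 3), 97.8, 140.1, 256 and 75.8 at 1 year (143 ± 80.5, SD, n = 4) and 533, 181, 361, 124 and 253 at 2 years (290.4 ± 162, SD, n = 5). In germ-free libraries it was 299 and 281 at 1 year (290.0 ± 12.3, SD, n = 2) and 396, 467 and 500.4 at 2 months (455 ± 53.2, SD, n = 3). In WT it was 117, 204, 95 and 313 at 2 months (182 ± 99.1, SD, n = 4), 51.5, 13.9, 1.94, 7.43 and 0.813 at 1 year (15.1 ± 21.0, SD, n = 5) and 115, 1.91, 133 and 180.5 at 2 years (108 ± 75.7, SD, n = 4). Every WT library of 1 year lay below every WT library of 2 months, and at 2 years a single library (replicate 2) was as low. The log2 difference of WT at 1 year from WT at 2 months, -4.34 ± 0.91, was the largest of the 9. Germ-free libraries of 2 months all lay above those of WT at 2 months, by 1.47 ± 1.04 on the log2 scale, and above the germ-free libraries of 1 year.

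Rhd (ENSMUSG00000028825, chromosome 4, 134864536 to 134896172, plus strand) encodes the Rh protein, which sits in the membrane in a complex with the Rh-associated glycoprotein. Libraries labelled IL1R1 KO had 540.1, 123 and 2115 normalized counts at 2 months (926 ± 1051, SD, n = 3), 348, 523, 311 and 179 at 1 year (340.2 ± 142, SD, n = 4) and 293, 439, 691, 732 and 558 at 2 years (543 ± 181, SD, n = 5). The germ-free counts were 609.5 and 812 at 1 year (711 ± 144, SD, n = 2) and 626, 457 and 725 at 2 months (603 ± 136, SD, n = 3). The WT counts were 331, 307, 309 and 249 at 2 months (299 ± 35.1, SD, n = 4), 163, 9.02, 17.6, 9.67 and 37.0 at 1 year (47.3 ± 65.8, SD, n = 5) and 415, 58.6, 203 and 359.5 at 2 years (259 ± 161, SD, n = 4). The 4 WT libraries of 2 months were close together, and all 5 of 1 year lay below them, with replicate 1 nearest. Rhd differed by -3.51 ± 0.70 on the log2 scale between WT at 1 year and WT at 2 months. In libraries labelled IL1R1 KO at 2 months replicate 3 was high and replicate 2 low.

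Cldn13 (ENSMUSG00000008843, chromosome 5, 134914249 to 134915526, minus strand) and Ermap (ENSMUSG00000028644, chromosome 4, 119175457 to 119190011, minus strand), an immunoglobulin-superfamily protein of erythroblast membranes, had their lowest group in WT at 1 year as well. The group means of Cldn13 were 687 ± 555 (SD, n = 3), 224 ± 120.2 (SD, n = 4) and 356 ± 75.3 (SD, n = 5) by age in libraries labelled IL1R1 KO. At 1 year germ-free Cldn13 averaged 408 ± 81.3 (SD, n = 2), and at 2 months 398 ± 276 (SD, n = 3). The normalized counts of Cldn13 in WT were 160.3, 432, 169 and 552 at 2 months, 112, 5.12, 14.4, 4.44 and 44.6 at 1 year and 274, 26.2, 198 and 231 at 2 years. WT at 1 year did not overlap WT at 2 months, and the libraries labelled IL1R1 KO at 2 months stood at 672, 139 and 1249.

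In libraries labelled IL1R1 KO Ermap averaged 1061 ± 846 (SD, n = 3), 665 ± 384 (SD, n = 4) and 554 ± 77.2 (SD, n = 5) by age, and in germ-free libraries it averaged 978 ± 638 (SD, n = 2) at 1 year, beside 999 ± 286 (SD, n = 3) at 2 months. In WT its normalized counts were 627, 774, 668 and 1007 at 2 months, 271, 3.82, 25.6, 112 and 37.3 at 1 year and 403, 209, 195 and 387 at 2 years. It was the only 1 of the 9 genes whose WT libraries of 2 years all lay below those of 2 months, with a log2 difference of -1.42 ± 0.80. Between WT at 1 year and WT at 2 months, the log2 difference was -4.13 ± 0.76 for Ermap and -3.88 ± 0.78 for Cldn13.

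Car1 (ENSMUSG00000027556, chromosome 3, 14766216 to 14808368, minus strand), the carbonic anhydrase, was the most abundant of the 9, at 2165 normalized counts per kb of merged exons over all libraries. On that per-length scale Klf1 had 398, Epor 376, Cldn13 280.2, Rhd 262, Gata1 238, Ermap 115, Kel 71.5 and Sptb 9.29. In libraries labelled IL1R1 KO the normalized count of Car1 was 3737, 1924 and 8301 at 2 months (4654 ± 3286, SD, n = 3), 3161, 3302, 1667 and 1732 at 1 year (2465 ± 887, SD, n = 4) and 2011, 2722, 2266, 2974 and 2707 at 2 years (2536 ± 389, SD, n = 5). These libraries were closest together at 2 years and widest apart at 2 months. Car1 in germ-free libraries was 2756 and 6727 at 1 year (4741 ± 2809, SD, n = 2) and 4953, 1665 and 5837 at 2 months (4152 ± 2198, SD, n = 3). In WT the count of Car1 was 4754, 2550, 5804 and 1414 at 2 months (3630 ± 2005, SD, n = 4), 1337, 151, 315, 257 and 267 at 1 year (465 ± 491, SD, n = 5) and 2092, 831, 722 and 2117 at 2 years (1441 ± 768, SD, n = 4). WT at 1 year lay wholly below WT at 2 months, although its replicate 1 came close to the lowest library there, and the log2 difference was -3.22 ± 0.56.

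Epor (ENSMUSG00000006235, chromosome 9, 21958897 to 21963506, minus strand), the erythropoietin receptor gene, varied least. Its normalized count in libraries labelled IL1R1 KO was 1321, 699 and 950.1 at 2 months (990.3 ± 313, SD, n = 3), 835, 475, 608 and 555 at 1 year (618 ± 155, SD, n = 4) and 835, 928, 736, 575 and 827 at 2 years (780.3 ± 133, SD, n = 5). Germ-free values of Epor were 688 and 869.9 at 1 year (779 ± 129, SD, n = 2) and 659, 659.6 and 1003 at 2 months (774 ± 198, SD, n = 3). The WT values were 969, 894, 708 and 549.8 at 2 months (779.9 ± 189, SD, n = 4), 645, 602, 609.6, 695 and 762 at 1 year (663 ± 66.3, SD, n = 5) and 732, 791, 561 and 703 at 2 years (697 ± 97.9, SD, n = 4). The 8 group means lay between 618 and 990.3, and the groups overlapped in all 10 comparisons between them made here. Its log2 difference of WT at 1 year from WT at 2 months was -0.21 ± 0.20, with an SE about as large as the difference.

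Klf1 (ENSMUSG00000054191, chromosome 8, 84901928 to 84905291, plus strand), the erythroid Krüppel-like factor, had 1226, 399 and 1904 normalized counts in libraries labelled IL1R1 KO at 2 months (1177 ± 754, SD, n = 3), 467, 682, 511 and 390.5 at 1 year (513 ± 124, SD, n = 4) and 509.6, 520.0, 656, 566 and 689 at 2 years (588 ± 80.8, SD, n = 5). Germ-free libraries had 758 and 1099 for Klf1 at 1 year (929 ± 241, SD, n = 2) and 1238, 463 and 1156 at 2 months (952 ± 426, SD, n = 3). WT had 652, 651, 784 and 598 at 2 months (671 ± 79.2, SD, n = 4), 294, 128, 109.8, 118 and 158 at 1 year (162 ± 76.3, SD, n = 5) and 614, 194, 119 and 614 at 2 years (385 ± 266, SD, n = 4). The WT libraries of 2 years split, replicates 1 and 4 at the level of 2 months and replicates 2 and 3 at that of 1 year. At 1 year Klf1 lay below WT at 2 months in every WT library, with a log2 difference of -2.14 ± 0.42.

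Gata1 (ENSMUSG00000031162, chromosome X, 7959260 to 7978071, minus strand) encodes the founding GATA factor. Libraries labelled IL1R1 KO had 1434, 915 and 1029 normalized counts of Gata1 at 2 months (1126 ± 273, SD, n = 3), 689.7, 507, 504 and 189.9 at 1 year (472 ± 208, SD, n = 4) and 274, 441, 556, 369 and 506 at 2 years (429 ± 112, SD, n = 5). In germ-free libraries Gata1 was 504 and 1064 at 1 year (784 ± 396, SD, n = 2) and 824, 508 and 699.5 at 2 months (677 ± 159, SD, n = 3). In WT libraries Gata1 was 926, 753, 1013 and 507 at 2 months (799.8 ± 223, SD, n = 4), 310.1, 194, 345, 208 and 168 at 1 year (245 ± 77.4, SD, n = 5) and 637, 356, 302 and 683 at 2 years (494 ± 193, SD, n = 4). WT at 1 year did not overlap WT at 2 months, and the log2 difference was -1.71 ± 0.33. Gata1 was also the 1 gene of the 9 whose libraries labelled IL1R1 KO at 1 year and at 2 years all lay below those labelled IL1R1 KO at 2 months. The log2 differences from 2 months were -1.37 ± 0.37 at 1 year and -1.41 ± 0.35 at 2 years. Placing IL1R1 KO 1 year replicate 1 at 2 months gave -1.43 at 1 year and -1.24 at 2 years.

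Set side by side, the age differences were unequal between groups. Between 1 year and 2 months the median log2 difference of the 9 genes was -0.74 in libraries labelled IL1R1 KO, 0.07 in germ-free libraries and -3.51 in WT. With IL1R1 KO 1 year replicate 1 placed at 2 months, the median in libraries labelled IL1R1 KO was -0.77. The 8 genes other than Epor were lower past the threshold of an adjusted p of 0.05 in WT, where 4.61% of all 16958 tested genes were lower and 10.7% passed in either direction. Gata1 alone passed, as lower, in libraries labelled IL1R1 KO (0.613% of tested genes lower, 2% in either direction). None did in germ-free libraries (2.1%). Over all tested genes the median difference was 0.01 in WT. Values of these contrasts were in view when the genes were chosen, so nothing is read from the counts of the 9 here or in the comparisons that follow. The WT ages did not overlap for the same 8 genes, against 5.62% of all genes that were lower without overlap. Without overlap, 1 gene was lower in libraries labelled IL1R1 KO (Gata1, 5.34% of all genes) and 1 in germ-free libraries (Kel, 12.6%). Without the 2-month libraries rich in Mpo, described below, the WT median was -3.10.

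Between 2 years and 2 months the median log2 difference was -0.41 in libraries labelled IL1R1 KO and -1.13 in WT. Gata1 alone passed in libraries labelled IL1R1 KO, where 2.9% of all tested genes were lower and 8.02% passed in either direction, and 0 of the 9 passed in WT (5.55%). Leaving out replicate 2 of IL1R1 KO 2 months gave a median of -1.15 in libraries labelled IL1R1 KO, and leaving out its replicate 3 gave 0.19, so its direction rested on single libraries. With IL1R1 KO 1 year replicate 1 placed at 2 months it was -0.26. All 9 genes were lower at 2 years than at 2 months in the WT means, from -0.14 ± 0.21 (Epor) to -1.62 ± 0.96 (Kel) on the log2 scale. Klf1 (-1.13 ± 0.44), Car1 (-1.31 ± 0.60) and Gata1 (-0.73 ± 0.34) had the smallest SEs beside their differences. Without overlap, Gata1 was lower in libraries labelled IL1R1 KO (7.44% of all genes) and Ermap in WT (3.82%). The WT libraries of 2 years did not form a tight group: the mean log2 level of the 9 genes was 8.58 and 8.68 in replicates 1 and 4 and 6.51 and 7.48 in replicates 2 and 3. Mpo, a gene of granulocyte precursors, was also higher in replicates 1 and 4, at 11719 and 16541 normalized counts, than in replicates 2 and 3, at 2630 and 3529, and its part in the split was not tested. In WT at 1 year that mean was 4.87 to 7.62, with replicate 1 the highest, and in WT at 2 months it was 8.67 to 9.12.

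At 1 year the 8 genes other than Epor were higher in libraries labelled IL1R1 KO and in germ-free libraries than in WT. The log2 differences of libraries labelled IL1R1 KO from WT were 4.36 ± 0.79 for Sptb, 3.99 ± 0.91 for Kel, 3.60 ± 0.70 for Rhd, 3.40 ± 0.78 for Cldn13 and 3.77 ± 0.76 for Ermap. They were 2.79 ± 0.56 for Car1, 1.73 ± 0.42 for Klf1, 0.86 ± 0.33 for Gata1 and -0.13 ± 0.20 for Epor. The membrane genes thus had the widest differences, and Epor a difference smaller than its SE. In 7 genes, all but Gata1 and Epor, every library labelled IL1R1 KO lay above every WT library, against 2.91% of all tested genes that were higher without overlap. Those 7 also passed the threshold, against 0.666% of all genes higher and 1.3% in either direction. The median of the 9 was 3.40, and 3.30 without IL1R1 KO 1 year replicate 1.

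Germ-free libraries at 1 year differed from WT at 1 year by 4.40 ± 0.99 for Sptb, 5.16 ± 1.14 for Kel, 4.75 ± 0.87 for Rhd, 4.39 ± 0.98 for Cldn13 and 4.33 ± 0.94 for Ermap on the log2 scale. The differences were 3.67 ± 0.70 for Car1, 2.59 ± 0.52 for Klf1, 1.63 ± 0.41 for Gata1 and 0.23 ± 0.24 for Epor. Both germ-free libraries lay above all 5 WT libraries in 8 genes, against 13.2% of all genes that were higher without overlap. A group of 2 libraries makes such a gap easier to reach, and the part of group size in that share was not tested. The 8 passed the threshold, as did 1.83% of all genes as higher and 4.96% in either direction. The median of the 9 was 4.33, and it was 3.09 without germ-free 1 year replicate 2 and 3.54 without WT 1 year replicate 2. These comparisons and that of WT between ages share the 5 WT libraries of 1 year, so they are not independent of each other.

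**Figure D2:**
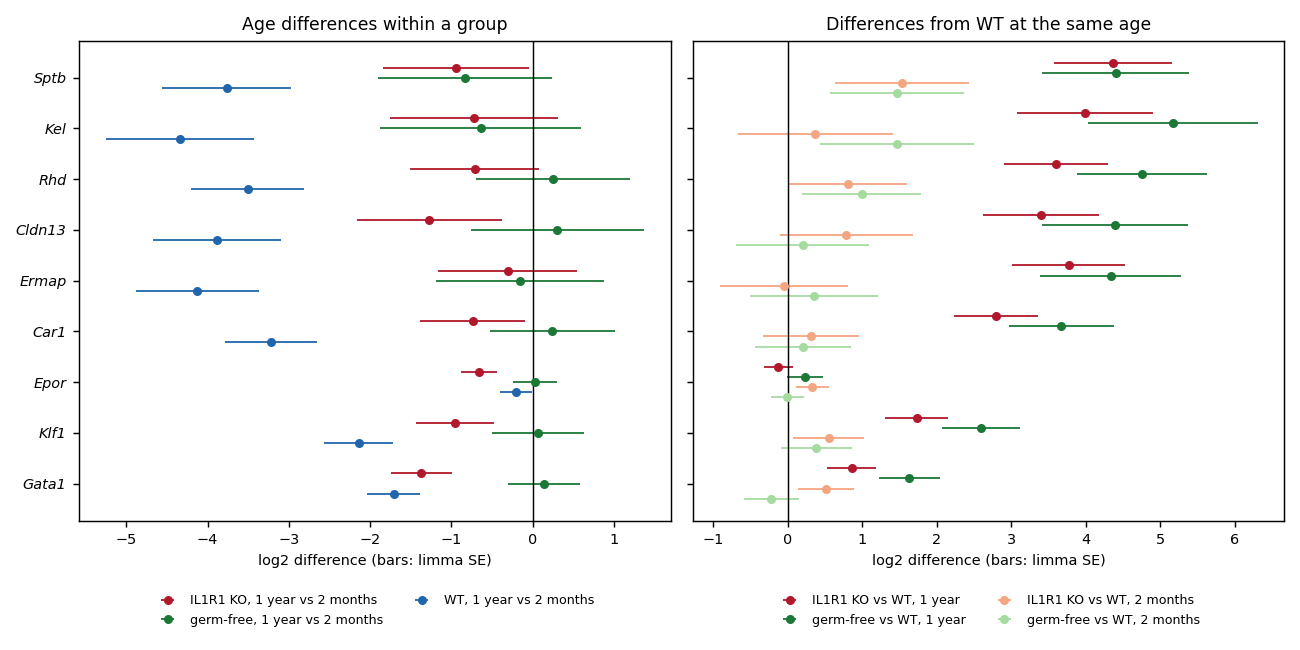
Log2 differences of the 9 genes with limma SEs as bars; left, 1 year against 2 months within a group, right, libraries labelled IL1R1 KO and germ-free libraries against WT at the same age. The WT age differences lie between -4.34 and -1.71 for all genes but Epor, and the differences from WT at 1 year lie right of those at 2 months for the same 8 genes.

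At 2 months and at 2 years the groups were closer. The median log2 difference of libraries labelled IL1R1 KO from WT was 0.51 at 2 months and 0.98 at 2 years, and that of germ-free libraries from WT was 0.36 at 2 months. With IL1R1 KO 1 year replicate 1 placed at 2 months, the median of libraries labelled IL1R1 KO at 2 months was 0.28. None of the 9 passed in these comparisons, in which 0.407%, 1.42% and 0.601% of all tested genes did. At 2 years Sptb (2.60 ± 0.79) and Ermap (0.96 ± 0.76) were higher in every library labelled IL1R1 KO than in every WT library, against 3.66% of all genes that were higher without overlap. At 2 months Kel and Rhd (0.99 ± 0.79) were higher in every germ-free library than in every WT library, against 3.89% of all genes.

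The age changes themselves were also compared between groups, as differences of log2 differences. The change from 2 months to 1 year in libraries labelled IL1R1 KO minus that in WT had a median of 2.61 over the 9 genes, from -0.46 ± 0.30 (Epor) to 3.82 ± 1.15 (Ermap). That in germ-free libraries minus that in WT had a median of 3.47, from 0.24 ± 0.33 (Epor) to 4.19 ± 1.32 (Cldn13). To 2 years, the change in libraries labelled IL1R1 KO minus that in WT had a median of 0.58. Without IL1R1 KO 2 months replicate 2 these medians were 1.76 to 1 year and -0.26 to 2 years, and with IL1R1 KO 1 year replicate 1 placed at 2 months they were 2.59 and 0.74. None of the 9 genes passed the threshold in any of the 3 comparisons, in which 0.0354% (libraries labelled IL1R1 KO to 1 year), 0% (germ-free libraries) and 0.395% (libraries labelled IL1R1 KO to 2 years) of all tested genes did. These are 6, 0 and 67 genes. Placing IL1R1 KO 1 year replicate 1 at 2 months gave 5, 0 and 0 in the same order, and leaving out the 2-month libraries rich in Mpo gave 38, 101 and 112.

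The companion genes, whose lists hold none of the 9, give the tests. Their lists were set by function but with earlier results of these data known, and they were measured in the same libraries. They are thus not an independent check of the pattern of the 9. In WT at 1 year against WT at 2 months, 8 of 58 passed limma's test, 6 lower and 2 higher, which is a share near the 10.7% of all tested genes. The median over the 58 was -0.03, and 16 had an unadjusted p under 0.05.

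Rhag, the Rh-associated glycoprotein gene, fell to 160.1, 22.5, 47.5, 68.4 and 72.5 in WT at 1 year, against 297, 362, 230.0 and 344 in WT at 2 months (-2.29 ± 0.52, SE, limma adjusted p = 0.00427). It kept its call under all 39 alternatives run. Add2, a beta-adducin that caps the spectrin-actin skeleton, stood at 27.5 to 153 in WT at 1 year, against 187 to 487 in WT at 2 months, so the groups did not overlap, and it fell by 2.27 ± 0.58 on the log2 scale (SE, limma adjusted p = 0.0114). In all, 4 of the 14 membrane companions fell and 1 rose, Xk, a partner of Kell in the membrane, by 0.42 ± 0.13 (SE, limma adjusted p = 0.0409), with a list median of -0.32. Xk lay outside the rule for named genes and was chosen after its value was seen. Add2 missed the threshold without WT 2 months replicate 2.

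In the other lists fewer genes passed in WT at 1 year. By limma, 0 of 8 genes of haem synthesis passed (2 at an unadjusted p under 0.05), 0 of 12 erythroid regulators other than Klf1 and Gata1 (2 at an unadjusted p under 0.05) and 0 of 4 tested globins (0 at an unadjusted p under 0.05), whose median log2 difference was -1.12. Steap3, a ferrireductase of iron uptake, fell by 1.03 ± 0.33 (SE, limma adjusted p = 0.0388), 1 of 6 in its list, and Car2, another carbonic anhydrase, rose by 0.26 ± 0.08 (SE, limma adjusted p = 0.0313), 1 of 6 tested, with a list median of 0.35. Socs2, a feedback inhibitor of cytokine receptors, fell by 1.24 ± 0.29 (SE, limma adjusted p = 0.00503), 1 of 8 in the list of erythropoietin signalling. Without the 2-month libraries rich in Mpo, 3 of the 58 companion genes passed. Without WT 2 months replicate 2 or 4, the number was 4 each, and without WT 2 months replicate 3 or WT 1 year replicate 4 it was 5 each.

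In libraries labelled IL1R1 KO against WT at 1 year, 4 of 58 companion genes passed, 3 higher and 1 lower, beside 1.3% of all tested genes, with 15 at an unadjusted p under 0.05. Rhag rose (2.24 ± 0.52, SE, limma adjusted p = 0.0227). Tal1, which encodes a stem cell and erythroid factor that acts with GATA1, fell by 0.55 ± 0.14 (SE, limma adjusted p = 0.0383). This count rested on single libraries. It was 1 with IL1R1 KO 1 year replicate 1 placed at 2 months, 0 without that library, without IL1R1 KO 1 year replicate 2 or without WT 1 year replicate 2, and 1 without IL1R1 KO 1 year replicate 3 or WT 1 year replicate 3. The signs of Rhag and Tal1 were the same under all 39 alternatives run. Many of these left out a library of another group, which cannot change a difference between these 2 group means.

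In germ-free libraries against WT at 1 year, 7 of 58 companion genes passed, 6 higher and 1 lower, beside 4.96% of all genes, with 19 at an unadjusted p under 0.05. Rhag (3.78 ± 0.65, SE, limma adjusted p = 0.00131) and Add2 (2.69 ± 0.73, SE, limma adjusted p = 0.0316) rose, and in all 4 of 14 membrane genes did. Rhag stood at 639.5 and 1149 in germ-free libraries, against 22.5 to 160.1 in WT. Hbb-bt, an adult beta-globin gene whose reads can be shared with Hbb-bs, rose by 1.76 ± 0.51 (SE, limma adjusted p = 0.0432), and Cpox, of haem synthesis, by 0.76 ± 0.21 (SE, limma adjusted p = 0.0373). Car12, a membrane-bound carbonic anhydrase, fell by 3.33 ± 0.78 (SE, limma adjusted p = 0.0135). The number was 2 without either germ-free library of 1 year, and 4 without any 1 of WT 1 year replicates 2, 3, 4 and 5.

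**Figure D3:**
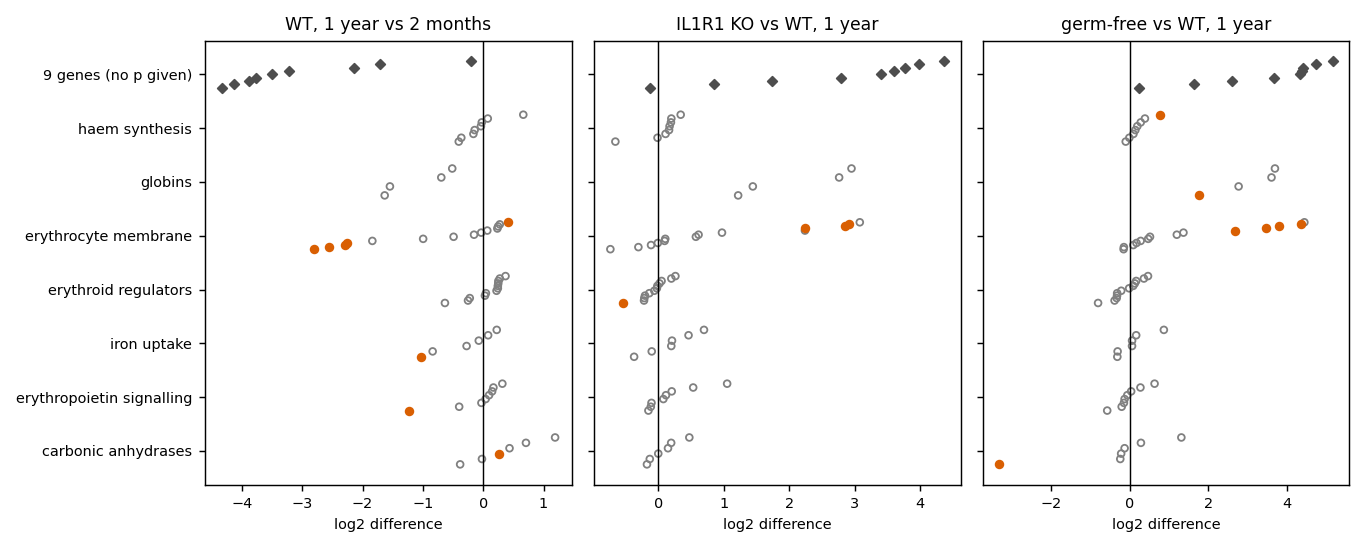
Log2 differences of the 9 genes (diamonds, calls not marked) and of the companion genes by list (circles, filled where they passed limma's adjusted p of 0.05) in 3 comparisons. In the membrane list Rhag lies at -2.29 in WT at 1 year against 2 months and at 3.78 in germ-free libraries against WT at 1 year.

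Fewer companion genes passed elsewhere, except in libraries labelled IL1R1 KO between 2 years and 2 months. There 7 of 58 passed, 4 higher and 3 lower, beside 8.02% of all genes. Socs3, an inhibitor of cytokine signalling, rose by 3.65 ± 0.70 (SE, limma adjusted p = 0.00161) and kept its call under all 39 alternatives run. Pim1, a kinase induced by STAT5, rose by 0.99 ± 0.19 (SE, limma adjusted p = 0.00103) and Gata2, the GATA factor of stem cells and early progenitors, by 0.84 ± 0.18 (SE, limma adjusted p = 0.00267). Xk rose, and Icam4, a membrane adhesion glycoprotein, and Car2 fell, with log2 differences of 0.60, -0.73 and -0.34. Leaving out IL1R1 KO 2 months replicate 1 gave 4 calls, placing IL1R1 KO 1 year replicate 1 at 2 months gave 4, and leaving out the 2-month libraries rich in Mpo gave 1. Markers of other cells also passed: 2 of 10 HSC genes, 1 of 6 granulocyte precursor genes and 1 of 5 tested endothelial and stromal genes were higher, 2 of 7 megakaryocyte and platelet genes were higher and 1 lower, and of 3 tested T and NK cell genes 1 was higher and 1 lower. The sum of 7 mast cell and basophil genes was at most 257 normalized counts at 2 years (median 80.5) and 124 to 12930 at 2 months. The part of these markers in the calls was not tested.

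In the remaining comparisons between 2 groups 0 or 1 of the 58 companion genes passed, and each of these single calls was kept under 22 to 37 of the 39 alternatives run. Of all tested genes, 5.55% passed for WT at 2 years, 2% for IL1R1 KO at 1 year and 2.1% for germ-free at 1 year, each against 2 months. Against WT, 0.407% passed for IL1R1 KO at 2 months, 1.42% for IL1R1 KO at 2 years and 0.601% for germ-free at 2 months. Nothing is read from the number of calls. Icam4 fell in libraries labelled IL1R1 KO at 1 year against 2 months (-0.80 ± 0.21, SE, limma adjusted p = 0.0427). Socs2 fell between 2 months and 1 year in germ-free mice (-1.54 ± 0.39, SE, limma adjusted p = 0.0348) and in WT at 2 years against 2 months (-1.32 ± 0.30, SE, limma adjusted p = 0.00733). Car2 was higher in libraries labelled IL1R1 KO than in WT at 2 months (0.48 ± 0.09, SE, limma adjusted p = 0.00652), and Cbfa2t3, a corepressor of the TAL1 complex, was lower at 2 years (-0.49 ± 0.12, SE, limma adjusted p = 0.0385). Germ-free libraries at 2 months gave 0 (14 at an unadjusted p under 0.05). The 3 differences of age changes gave 0 each by limma, with 4, 9 and 7 at an unadjusted p under 0.05 for libraries labelled IL1R1 KO to 1 year, to 2 years and for germ-free libraries to 1 year, so a difference in age change was not called for any companion gene.

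Marker genes of other blood cells were also at unequal levels in these comparisons. The summed level of 8 neutrophil genes was 40.2 to 1761 normalized counts in WT at 1 year (median 404) and 5007 to 35460 in WT at 2 months (median 6808), and 5 of the 8 fell. That of 6 monocyte and macrophage genes was 567 to 1062 in WT at 1 year and 1020 to 14240 in WT at 2 months, and that of 7 mast cell and basophil genes 91.8 to 400 and 152 to 14930 in the same order, with Cma1 and Tpsb2 at 0 in both groups. The sum of 10 HSC genes was higher in WT at 1 year, at 98110 to 106200 against 77790 to 79340, with 6 of the 10 higher and 0 lower, and so was that of 7 megakaryocyte and platelet genes, at 56680 to 67750 against 44950 to 48090, with 2 of the 7 higher and 0 lower. In the same comparison 1 of 6 monocyte and macrophage genes and 1 of 3 tested T and NK cell genes fell, 0 of 5 tested mast cell and basophil genes and 0 of 6 B cell genes passed (1 and 0 at an unadjusted p under 0.05 by limma), and of 5 tested endothelial and stromal genes 1 rose and 1 fell. WT libraries were also deeper at 1 year, at 32.6 to 56.3 M reads, than at 2 months, at 20.0 to 29.5 M. Their part in the differences of the erythroid genes was not tested.

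At 1 year the neutrophil sum was 327 to 6665 in libraries labelled IL1R1 KO and 2561 to 4071 in germ-free libraries, against 40.2 to 1761 in WT, and 0 of the 8 genes passed in either comparison (0 and 4 at an unadjusted p under 0.05 by limma). The HSC sum was 86230 to 98630 in libraries labelled IL1R1 KO and 73160 to 83850 in germ-free libraries, against 98110 to 106200 in WT. By limma, 3 of the 10 HSC genes were lower in germ-free libraries and 0 passed in libraries labelled IL1R1 KO (2 at an unadjusted p under 0.05). Germ-free libraries also differed from WT in 2 of the 7 megakaryocyte and platelet genes, 1 up and 1 down. The globin sum was 1536 to 9511 and 4552 to 10190 in the same groups, against 557 to 1602 in WT. The HSC sum exceeded the globin sum, which holds the most abundant transcripts of red cells, in every library. The part of these lists in the differences at 1 year was not tested.

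Mpo stood above 10000 normalized counts in 6 libraries of 2 months: IL1R1 KO replicates 1 and 3, germ-free replicates 1 and 3 and WT replicates 2 and 4. It also did so in IL1R1 KO 1 year replicate 2 (12930) and in WT 2 years replicates 1 and 4, which were kept throughout. Without the 6 of 2 months, the WT log2 differences at 1 year from 2 months were -2.69 for Sptb, -3.71 for Kel, -3.61 for Rhd, -3.10 for Cldn13, -3.91 for Ermap, -3.96 for Car1, -0.33 for Epor, -2.24 for Klf1 and -2.03 for Gata1, so all 9 kept their sign. In libraries labelled IL1R1 KO the median difference of 1 year from 2 months was 0.28 without them, against -0.74 with all libraries, and Gata1 stood at -1.09. With these libraries left out, 1 library labelled IL1R1 KO and 1 germ-free library remain at 2 months.

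**Figure D4:**
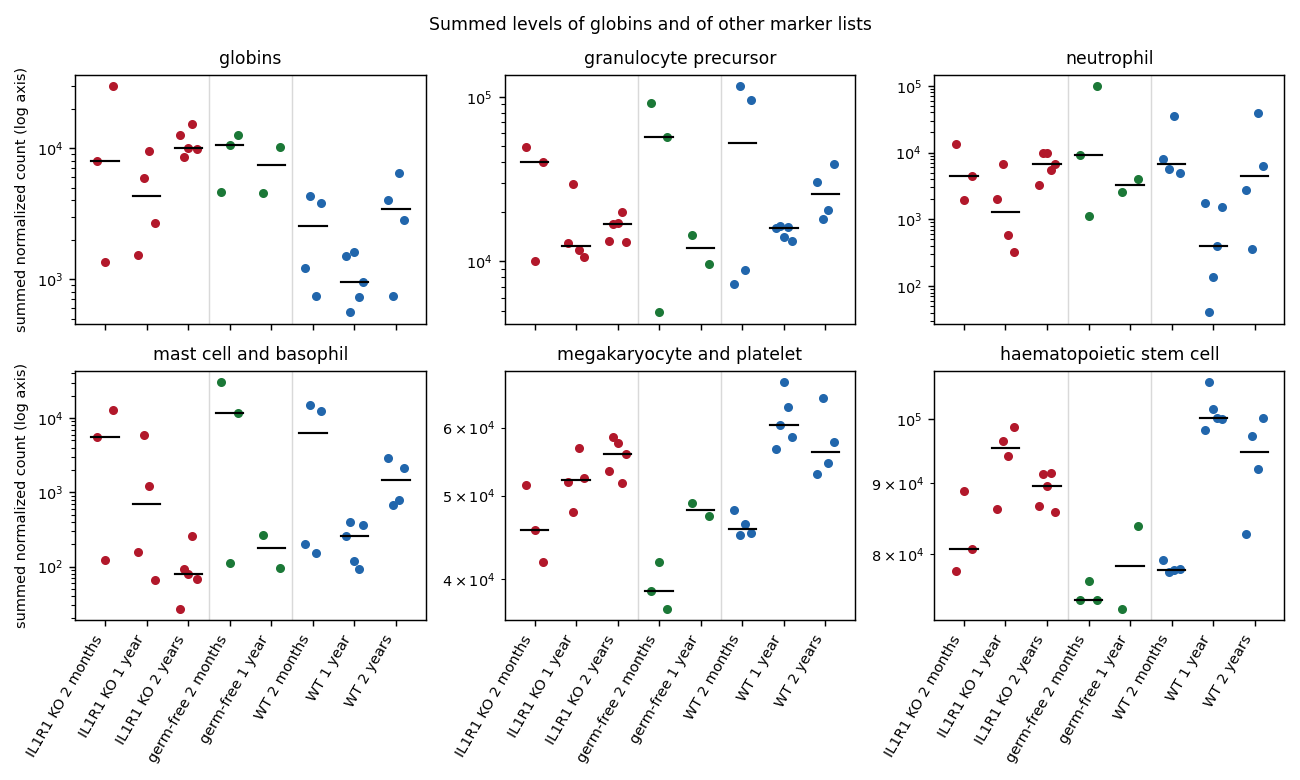
Summed normalized counts (log axis) of the globins and of 5 marker lists of other cells in every library, by group; each point is 1 library and each line the median. WT at 1 year has the lowest median neutrophil sum (404, range 40.2 to 1761) and the highest median HSC sum (100100, range 98110 to 106200). Both ranges overlap those of other groups. The granulocyte precursor sums split the 2-month groups.

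Across the 30 libraries the genes other than Epor varied together. Over their 28 pairs Pearson's r of log2 levels was 0.57 to 0.94, with a median of 0.85, highest between Rhd and Cldn13. Taken as deviations from group means, r was 0.17 to 0.84 with a median of 0.57, so libraries of 1 group also differed in the level of the set as a whole. Epor correlated with the other 8 at 0.18 to 0.52 (median 0.36), and at -0.14 to 0.37 within groups. Spearman's rho was 0.43 to 0.90 for the 28 pairs and 0.24 to 0.52 for Epor. These are descriptions over 30 libraries that share groups, library preparation and scaling, and no p is given.

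**Figure D5:**
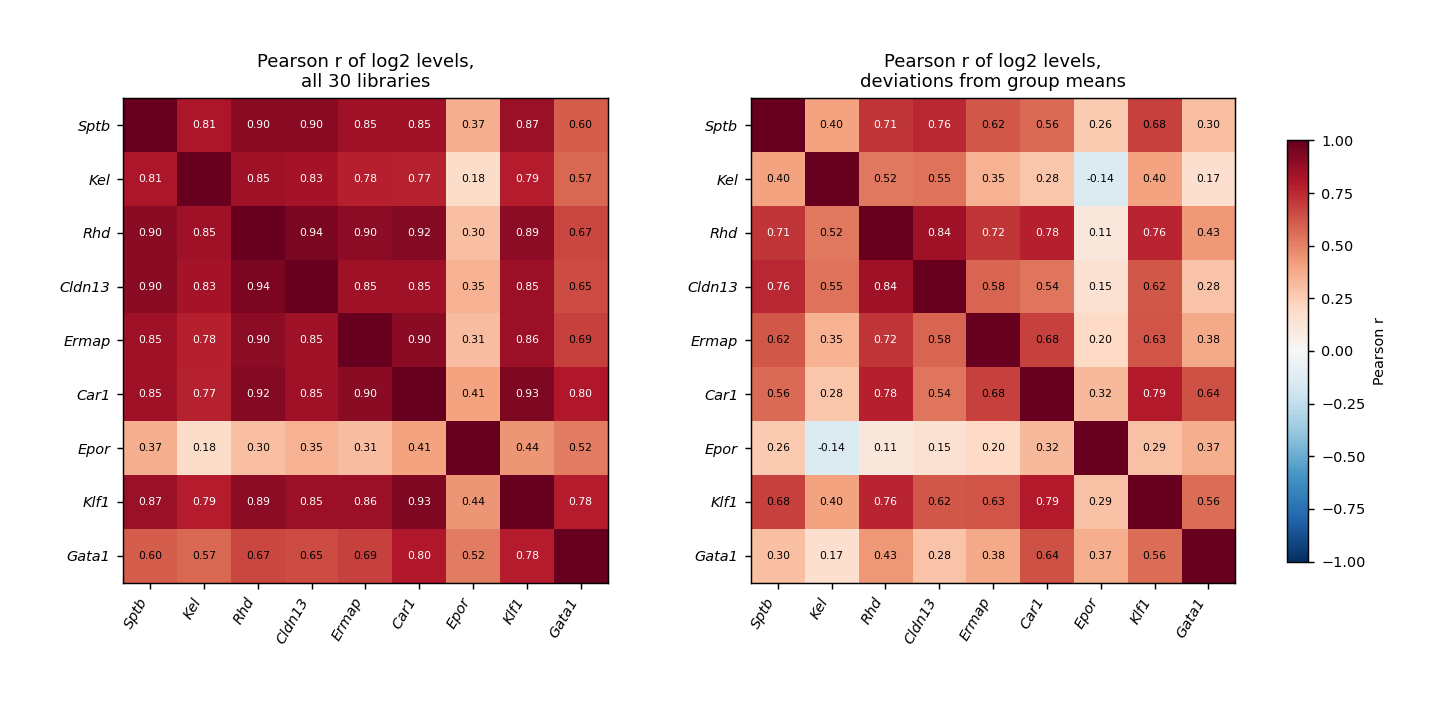
Pearson's r between log2 levels of the 9 genes over 30 libraries (left) and between deviations from group means (right). Epor has the palest row and column in the left panel, at 0.18 to 0.52, and the remaining pairs lie at 0.57 to 0.94.

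The genes most like each of the 9 in pattern were sought by Spearman's rho over the 30 libraries among 12694 tested genes with a mean of at least 50 normalized counts. Sptb was most like Add2 (0.91), with Il1rl1 (0.82) also among its 3 nearest, and Kel was most like the globin genes Hbb-bt (0.83), Hba-a1 (0.82) and Hba-a2 (0.81). Rhd was most like Rhag (0.91), Slc25a21 (0.83) and Add2 (0.82), and the 3 nearest to Cldn13 included Slc38a5 (0.84) and Slc4a1 (0.82), the gene of the anion exchanger band 3. For Sptb, Kel and Rhd the gene ranked first came from the companion lists. Ermap was most like C1qtnf12 (0.90), Slc38a5 (0.89) and Tspo2 (0.86), none of them in those lists.

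Outside the membrane genes, Car1 was most like Sphk1 (0.88), Atp1b2 (0.88) and Slc38a5 (0.83), and Klf1 shared the same 3 names, Slc38a5 (0.89), Atp1b2 (0.86) and Sphk1 (0.85). Gata1 was most like Ube2c (0.88) and Cenpa (0.87), which act in cell division, and Atp1b2 (0.85). Epor was most like Kif20a (0.79), Exd2 (0.74) and Kif4 (0.69), of which Kif20a and Kif4 encode motor proteins of mitosis. The mean log2 level of the 9 genes was most like Add2 (0.93), Slc38a5 (0.89) and Rhag (0.87).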

How the data were processed

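Sorted mouse HSCs were profiled by Smart-seq2, per the labels' protocols, on NovaSeq with single-end reads and a kit that does not mark strand. The authors deposited normalized counts per gene, a signal scaled per library. Per the submitters' processing notes, DESeq2 1.26.0, Salmon 1.2.0.0, cutadapt 2.10 and FastQC 0.11.9 were used, on GRCm38. Of values below 20 reads, 9.70% to 18.5% were whole multiples of 1 read within 0.001, so no count model was run. The step of 1 read gave the estimated depth.

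The values entered as log2(normalized count + 1), which understates changes of low genes. limma 3.58.1 in R 4.3.3 (1 mean per group, all 30 libraries, trend and robust) gave differences, SEs and two-sided p-values adjusted by Benjamini-Hochberg over 16958 genes with at least 10 in at least 3 libraries, at a threshold of 0.05. The fit was tested on simulated data. Other steps ran in Python 3.11.15 with matplotlib 3.10.9, scipy 1.17.1, pandas 2.3.3 and numpy 2.4.6. Positions came from GENCODE M21 and promoters from RefSeq.

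All 9 genes are named, companion genes where they passed (up to 4 per list and comparison, by smallest p), the 3 genes most alike in pattern for each of the 9, and Mpo. Some companion genes that this rule names are counted but not reported here by name. Members and lists were chosen with earlier results of these data known. Alternatives changed the pseudocount, filter, scaling, samples in the fit, weights, replicate block and placement of 1 library, and left out each library in turn or the 2-month libraries rich in Mpo.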

Additional observations from a re-analysis of the deposited data

Results flagged for a closer look

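In WT at 1 year, replicate 1 stood far above the other 4 libraries in normalized counts for 4 of the 9 genes. Kel had 51.5 normalized counts there, against 13.9 in the next library, Rhd had 163 against 37.0, Car1 had 1337 against 315, and Klf1 had 294 against 158. The gap to the next library took up 0.742, 0.818, 0.862 and 0.736 of the whole range of the group, above Dixon's critical value for 5 samples. This rule was applied to normalized counts and not to the log2 values of the fit. A gap among high values takes a smaller share of the range on the log2 scale, so these flags cannot be read as outliers on the scale of the fit. In all, 45 sets of values, each of 1 gene in 1 group, were examined, and chance flags about 1 in 20. The mean log2 level of the 9 genes was 7.62 in this library and 4.87 to 5.92 in the other 4, and it was 6.51 to 10.4 in the libraries outside the group. Without it, the median log2 difference of the 9 genes was -4.17 for WT at 1 year against WT at 2 months, 4.04 for libraries labelled IL1R1 KO against WT at 1 year and 4.94 for germ-free libraries against WT at 1 year.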

How the results depend on the processing

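Direction was kept by all called companion genes under all 39 alternatives run. Many of these could not change it: with 1 mean per group, leaving out a library outside the groups compared leaves the log2 difference as it was. With no filter, the companion genes called numbered 0 for libraries labelled IL1R1 KO at 1 year against 2 months, 0 for germ-free at 1 year against 2 months, and 2 and 0 for IL1R1 KO against WT at 1 and 2 years. With equal library sums, germ-free at 1 year against 2 months gave 2 and the change to 2 years (IL1R1 KO minus WT) 1. Quantile normalization gave 0 for IL1R1 KO at 1 year against 2 months and for IL1R1 KO against WT at 2 months and at 2 years. Fits of only the groups compared gave 0 for both 1-year comparisons with 2 months in IL1R1 KO and germ-free libraries, 0 and 5 for IL1R1 KO against WT at 2 months and 2 years, and 2 for the change to 2 years. Array weights gave 0 for the same 2 age comparisons, 4 for IL1R1 KO against WT at 2 years and 4 for germ-free against WT at 1 year. With IL1R1 KO 1 year replicate 1 placed at 2 months, IL1R1 KO gave 0 at 1 year and 4 at 2 years against 2 months, and 1 and 0 against WT at 1 and 2 years. The cause of these moves was not tested.

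Without the 2-month libraries rich in Mpo, which leaves fewer samples, the companion genes called were 3 and 0 for WT at 1 and 2 years against 2 months, 0 and 1 for IL1R1 KO, 2 for germ-free at 1 year, 0, 7 and 4 for IL1R1 KO against WT at 2 months, 1 year and 2 years, 1 for germ-free against WT at 2 months and 1 for the change to 1 year (germ-free minus WT). The medians of the 9 genes were 0.28 and 0.80 for IL1R1 KO at 1 and 2 years against 2 months, -0.24 for IL1R1 KO against WT at 2 months, and 3.64 and 1.77 for the changes to 1 and 2 years (IL1R1 KO minus WT). Over all genes, 988 passed for WT at 1 year against 2 months, against 1818 with all libraries, 162 and 461 for IL1R1 KO at 1 and 2 years (340 and 1360), 340 for IL1R1 KO against WT at 1 year (221), 173 for germ-free against WT at 2 months (102), 38 and 112 for the changes to 1 and 2 years (IL1R1 KO minus WT, 6 and 67) and 101 for the change to 1 year (germ-free minus WT, 0).

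Fits of only the groups compared called 342 genes for WT at 2 years against 2 months (941 in all libraries together), 50 for IL1R1 KO at 1 year (340), 10 for germ-free at 1 year (356), 19 and 356 for IL1R1 KO against WT at 2 months and 1 year (69 and 221), 37 for germ-free against WT at 2 months (102) and 113 for the change to 2 years (67). Array weights called 133 for germ-free at 1 year against 2 months (356), 40, 474 and 535 for IL1R1 KO against WT by age (69, 221 and 241), 56 and 462 for germ-free against WT at 2 months and 1 year (102 and 841) and 10 and 106 for the changes to 1 and 2 years (IL1R1 KO minus WT, 6 and 67). With IL1R1 KO 1 year replicate 1 placed at 2 months, 58 and 710 genes were called for IL1R1 KO at 1 and 2 years against 2 months (340 and 1360), 129 and 158 for IL1R1 KO against WT at 1 and 2 years (221 and 241) and 0 for the change to 2 years (67). With no filter, 13 were called for the change to 1 year (germ-free minus WT, 0).

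A replicate block gave 0 companion genes for IL1R1 KO at 1 year against 2 months, for germ-free at 1 year against 2 months and for IL1R1 KO against WT at 2 years, each 1 without the block. It called 141 and 418 genes in all for IL1R1 KO and germ-free libraries against WT at 1 year, against 221 and 841 without it. What the replicate numbers stand for is not known here. Deviations of 88 same-numbered pairs correlated at -0.11 to 0.16 (median 0.0054), beside a median of -0.0009 for pairs of different numbers. Of 30 libraries, 11 correlated best with their own number. Whether the numbers mark a shared batch was not tested.

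Leaving out 1 library at a time, the companion genes called ranged over 4 to 10 for WT at 1 year and 1 to 2 at 2 years against 2 months, 0 to 2 and 4 to 10 for IL1R1 KO, and 0 to 3 for germ-free at 1 year. Against WT they ranged over 0 to 3, 0 to 6 and 0 to 3 for IL1R1 KO by age, 2 to 9 for germ-free at 1 year and 0 to 0 at 2 months. For the changes they were 0 to 0 (IL1R1 KO to 1 year), 0 to 1 (IL1R1 KO to 2 years) and 0 to 1 (germ-free). The medians ranged over -4.17 to -3.16 and -1.46 to -0.60 for WT, -1.43 to -0.20 and -1.15 to 0.19 for IL1R1 KO, -0.40 to 0.48 for germ-free, 0.07 to 0.94, 2.94 to 4.04 and 0.72 to 1.27 for IL1R1 KO against WT, 3.09 to 4.94 and 0.13 to 0.83 for germ-free against WT at 1 year and 2 months, and 1.76 to 3.29, -0.26 to 1.25 and 2.82 to 3.96 for the changes. Counts of 1 were lost in IL1R1 KO at 1 year without any of IL1R1 KO 2 months replicates 1 and 3, IL1R1 KO 1 year replicates 1, 2 and 3, IL1R1 KO 2 years replicates 1 and 2 and WT 1 year replicates 4 and 5, and in IL1R1 KO against WT at 2 years without any of IL1R1 KO 2 years replicates 1, 3 and 5 and WT 2 years replicates 2 and 3. Genes near 0 in WT at 1 year, such as Sptb and Kel, rest on few reads in some libraries of that group, although these held 32.6 to 56.3 M reads. Their log2 differences depend on the added 1.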

Other observations

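Slc4a1, the gene of band 3, the main anion exchanger of the red cell, did not pass in the comparisons at 1 year, although its means were low in WT. It had 23.5, 114, 424 and 40.8 normalized counts in libraries labelled IL1R1 KO at 1 year and 103 and 451 in germ-free libraries at 1 year, against 26.7, 2.24, 15.4 and 65.5 in 4 WT libraries at 1 year, and it was listed at 0 in WT 1 year replicate 4. The groups labelled IL1R1 KO and WT overlapped. The log2 difference from WT was 3.08 ± 1.40 in libraries labelled IL1R1 KO (SE, limma adjusted p = 0.375) and 4.44 ± 1.74 in germ-free libraries (SE, limma adjusted p = 0.141).

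Socs2, a feedback inhibitor of cytokine receptors, had 1451, 1636, 1558 and 1671 normalized counts in libraries labelled IL1R1 KO at 1 year and 774 and 606 in germ-free libraries at 1 year, against 504, 601, 1040, 1356 and 597 in WT at 1 year. Every library labelled IL1R1 KO lay above every WT library at that age, and the germ-free libraries lay within the WT range. The log2 difference of libraries labelled IL1R1 KO from WT, 1.05 ± 0.29, did not pass (SE, limma adjusted p = 0.0671).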
